A study of Mus musculus with 20 samples.

Results

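The epithelial sodium channel (ENaC) and 5 genes of the aldosterone response were followed in whole mouse kidney: the channel subunits Scnn1a, Scnn1b and Scnn1g, the mineralocorticoid receptor Nr3c2, the steroid-inactivating enzyme Hsd11b2, the kinase Sgk1, the potassium channel Kcnj1 and the ubiquitin ligase Nedd4l. These 8 genes were chosen by symbol from the 55822 genes of the deposited table, and all 8 were among the 16266 genes with enough reads to test. Poly(A) RNA was sequenced from the kidneys of male C57BL/6J mice, an inbred line, at 8 weeks of age. Controls received phosphate-buffered saline (PBS), and the treated group received 1 mg per day of puberulic acid, a tropolone made by some moulds. Dosing was daily, 6 administrations in all, and whole kidneys were taken on day 7. Each group has 5 libraries, called animals here, although the labels do not state that each is a separate mouse. One label gives oral dosing and another allows gavage or intraperitoneal injection, so the route is not certain. The normal and toxic lots of the supplement Choleste-Help, which form the other groups of the study, are not analysed here.

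ENaC carries sodium from the urine into the principal cells and connecting tubule cells of the distal nephron, and its channel is built from alpha, beta and gamma subunits. Aldosterone binds the mineralocorticoid receptor in these cells, raises transcription of Sgk1 and of the alpha subunit in the kidney, and so increases sodium uptake. SGK1 phosphorylates NEDD4L, which otherwise marks the channel for removal from the membrane, and HSD11B2 destroys glucocorticoids that would occupy the same receptor.

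The libraries held 18409940 to 22725111 estimated counts in controls and 19897614 to 24705953 with puberulic acid. Every member had at least 198 counts in every library. Levels are in CPM, counts normalised to library size and scaled by trimmed mean of M-values (TMM). Errors are SD over the 5 animals of a group for levels and SE for log2 changes. The kidney label fits the markers: proximal tubule markers summed to 6068 to 9323 CPM in controls. They summed to 256.1 to 858.4 CPM with puberulic acid, where all 6 were called lower. Mitochondrially encoded transcripts took 18.8% to 22.2% of the counts in controls and 10.5% to 13.8% with puberulic acid. Total-count scaling moved the median log2 fold change of all genes from 0.05 to 0.56, and the part of the mitochondrial share in this was not tested. Changes below are with TMM unless total counts are named.

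Of the 8 genes, 6 fell with puberulic acid (Scnn1a, Scnn1b, Scnn1g, Nr3c2, Hsd11b2 and Kcnj1), and no difference was detected for Sgk1 and Nedd4l. No member was called higher by edgeR's quasi-likelihood test, at an adjusted or an unadjusted p under 0.05 (0 genes each), or by DESeq2 (0 genes). Among all genes tested, 65.3% were called, 31.1% lower and 34.2% higher. By at least 2-fold, 2216 genes (13.6%) were called lower, a size that 0 of the 8 members reached with all animals included. Hsd11b2 was close to it, at a log2 fold change of -0.98 (-1.0 by DESeq2). Without puberulic acid replicate 1, Scnn1a (-1.25) and Kcnj1 (-1.30) passed it. The median log2 fold change of the members was -0.74, against 0.05 over all genes tested. For 4 members, Scnn1g, Nr3c2, Hsd11b2 and Kcnj1, every treated animal was below every control. Over all genes tested, 24.0% were lower without overlap, 26.1% higher without overlap and 50.1% either. With total-count scaling, 1 of the 8 was called lower (Hsd11b2), where 15.5% of all genes were, and 0 were called higher, where 56.4% were. Under that scaling the median of the members was -0.22 and all 8 lay below the median gene. In whole-kidney RNA, fewer cells of a type and less RNA per cell cannot be told apart.

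**Figure D1:**
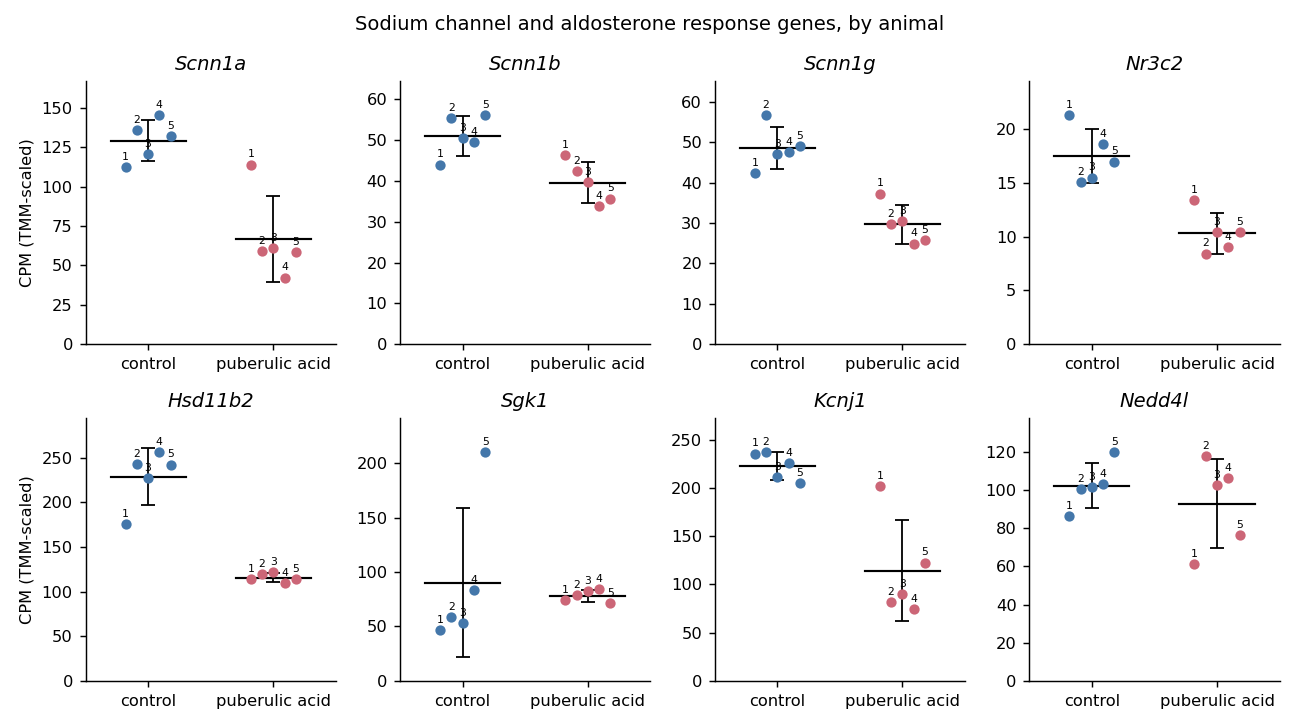
Level of each gene in every library, in TMM-scaled CPM on axes that start at 0. Points are animals, numbered by replicate, black lines are group means and bars are SD (n = 5 per group); puberulic acid replicate 1 is the highest of its group for Scnn1a, Scnn1b, Scnn1g, Nr3c2 and Kcnj1, and control replicate 5 stands alone for Sgk1 at 210.2 CPM.

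All 3 subunit genes of the sodium channel fell with TMM scaling, and none was called with total counts. Scnn1a (ENSMUSG00000030340), which encodes the alpha subunit, was at 112.2, 135.8, 120.8, 145.3 and 132.3 CPM in control replicates 1 to 5 and at 114.0, 59.3, 61.0, 42.3 and 58.7 CPM in puberulic acid replicates 1 to 5. Puberulic acid replicate 1 lay inside the control range and the other 4 lay at no more than 61.0 CPM. Here the log2 fold change was -0.95 ± 0.22 (adjusted p = 0.00218), or 51.9% of the control level. Without replicate 1 it was -1.25 (adjusted p = 2.73e-06), and with total counts it was -0.44 (adjusted p = 0.0822).

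Scnn1b (ENSMUSG00000030873), for the beta subunit, was at 44.0, 55.4, 50.5, 49.5 and 56.1 CPM in controls and at 46.4, 42.5, 39.8, 33.8 and 35.7 CPM with puberulic acid. The ranges overlapped only through puberulic acid replicate 1 and control replicate 1. Its log2 change was the smallest of the 6 that fell, at -0.37 ± 0.10 (adjusted p = 0.00828). Its direction depended on scaling: with total counts it was 0.14 (adjusted p = 0.237).

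Scnn1g (ENSMUSG00000000216), for the gamma subunit, was at 42.3, 56.7, 47.1, 47.5 and 49.0 CPM in controls and at 37.3, 29.8, 30.5, 24.9 and 25.8 CPM with puberulic acid. All 5 treated animals were below all 5 controls. This gave a log2 change of -0.71 ± 0.12 (adjusted p = 0.000248), and with total counts it was -0.20 (adjusted p = 0.136).

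Ratios of subunits within a library do not depend on library scaling. The ratio of Scnn1g to Scnn1b was 0.962, 1.02, 0.932, 0.958 and 0.874 in controls and 0.805, 0.70, 0.767, 0.735 and 0.723 with puberulic acid. Every treated animal was below every control, a log2 difference of -0.35 (two-sided exact permutation p = 0.00794, the lowest possible with 5 against 5, and adjusted p = 0.0397 over the 5 ratios compared). The ratio of Scnn1b to Scnn1a was 0.341 to 0.424 in controls, and 0.407, 0.717, 0.653, 0.800 and 0.608 in puberulic acid replicates 1 to 5. That log2 difference, 0.65, did not pass the correction (exact permutation p = 0.0317, adjusted p = 0.0794). Without replicate 1 it was 0.80 (exact permutation, adjusted p = 0.0132). The ratio of Scnn1g to Scnn1a differed by 0.30 on the log2 scale (exact permutation p = 0.0794, adjusted p = 0.132) and by 0.43 without replicate 1 (exact permutation, adjusted p = 0.0132). In replicate 1 the ratios of both subunits to Scnn1a lay inside the control range.

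**Figure D2:**
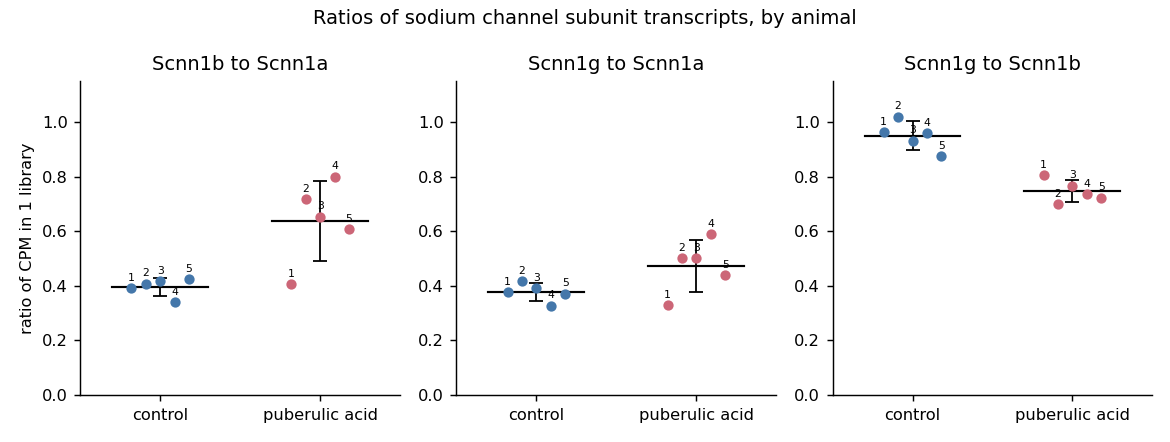
Ratio of the CPM of one subunit gene to another in the same library, on axes that start at 0. Points are animals numbered by replicate, lines are means and bars are SD (n = 5 per group); for Scnn1g to Scnn1b the puberulic acid animals (0.70 to 0.805) lie below the controls (0.874 to 1.02), while replicate 1 keeps the ratios to Scnn1a inside the control range.

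The beta and gamma genes both lie on chromosome 7. The stretch upstream of each start, taken from RefSeq on GRCm38.p6, is shown because the ratio of these genes differed between the groups. The processing notes name GRCm39, so the sequences describe the genes and not the reads. The Scnn1b stretch is chr7:121864788-121865037 (plus strand, 60.8% G and C) and the Scnn1g stretch is chr7:121734229-121734419 (plus strand, 67.0%, ended before the first annotated base of the gene).
Scnn1b: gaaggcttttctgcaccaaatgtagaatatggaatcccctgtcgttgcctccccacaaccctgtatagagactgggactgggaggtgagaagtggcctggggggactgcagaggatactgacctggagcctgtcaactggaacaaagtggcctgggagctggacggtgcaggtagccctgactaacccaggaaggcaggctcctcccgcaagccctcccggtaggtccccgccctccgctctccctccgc
Scnn1g: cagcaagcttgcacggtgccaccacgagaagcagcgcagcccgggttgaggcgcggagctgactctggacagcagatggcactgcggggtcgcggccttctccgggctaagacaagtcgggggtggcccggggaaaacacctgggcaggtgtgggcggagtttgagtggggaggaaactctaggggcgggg
Neither stretch holds AGAACA or its reverse complement TGTTCT, the half-site to which the mineralocorticoid and glucocorticoid receptors bind. Of 32851 RefSeq windows of 250 bases before a start, 16.1% hold it on either strand.

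The receptor and the enzyme that guards it both fell. Nr3c2 (ENSMUSG00000031618), the mineralocorticoid receptor, was at 21.3, 15.1, 15.5, 18.6 and 17.0 CPM in controls and at 13.4, 8.43, 10.4, 9.01 and 10.4 CPM with puberulic acid. The groups did not overlap, and the nearest animals were puberulic acid replicate 1 and control replicate 2. The change was -0.76 ± 0.15 (adjusted p = 0.000718), and with total counts it was -0.25 (adjusted p = 0.152).

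Hsd11b2 (ENSMUSG00000031891), which converts corticosterone to an inactive steroid, had the lowest adjusted p of the members. It was at 175.5, 242.8, 226.9, 256.2 and 242.1 CPM in controls and at 113.8, 119.6, 121.7, 109.2 and 113.6 CPM with puberulic acid. The treated animals lay close together and all below the lowest control. On the log2 scale the change was -0.98 ± 0.10 (adjusted p = 5.19e-06), or 50.5% of the control level. It was the only member called lower under both scalings, at -0.48 with total counts (adjusted p = 0.00145). The ratio of Hsd11b2 to Nr3c2 within a library ran from 8.22 to 16.1 in controls and from 8.49 to 14.2 with puberulic acid, a log2 difference of -0.21 (exact permutation p = 0.349, adjusted p = 0.437).

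For Sgk1 and Nedd4l, the kinase and the ligase it restrains, no difference was detected. Sgk1 (ENSMUSG00000019970) was at 46.6, 58.8, 53.0, 83.1 and 210.2 CPM in controls and at 74.5, 79.1, 82.6, 84.0 and 71.3 CPM with puberulic acid. Control replicate 5 was far above the other controls, and the treated animals lay between 71.3 and 84.0 CPM, around the highest of those 4. Across groups, the log2 fold change was -0.21 ± 0.36 (adjusted p = 0.63), with a 95% interval from -0.98 to 0.57, which spans both signs. Without control replicate 5 the log2 fold change was 0.36 (adjusted p = 0.054), and with total counts it was 0.30 (adjusted p = 0.461). Control replicate 5 was also the highest control for 5 of 10 steroid-induced genes, among them Tsc22d3 at 127.5 CPM against 46.3 to 91.9 and Per1 at 68.5 CPM against 24.8 to 40.6. For Ndrg2 (125.0 CPM, the next control 124.9) and Fkbp5 (114.9 CPM, the next 111.7) it was the highest by little, and for Errfi1 it was the lowest control (341.7 CPM). Puberulic acid replicate 1 was likewise the highest of its group for 5 of the same 10 genes. Control replicate 5 was the lowest control for Hsd11b1, which regenerates corticosterone, at 63.6 CPM against 146.3 to 176.7. Hsd11b1 was picked after its values were seen, and the part of these genes in the Sgk1 level was not tested.

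The Sgk1 gene has 6 start sites in the RefSeq table, and 3 of their upstream windows hold the half-site. One of them, chr10:21993640-21993889 on GRCm38.p6 (plus strand), is shown because it holds an inverted repeat of half-sites 3 bases apart, the form that a pair of receptor molecules binds. The repeat is in capitals and lies 189 to 175 bases upstream of the start, and another TGTTCT, 242 bases upstream, is left in lower case.
Sgk1: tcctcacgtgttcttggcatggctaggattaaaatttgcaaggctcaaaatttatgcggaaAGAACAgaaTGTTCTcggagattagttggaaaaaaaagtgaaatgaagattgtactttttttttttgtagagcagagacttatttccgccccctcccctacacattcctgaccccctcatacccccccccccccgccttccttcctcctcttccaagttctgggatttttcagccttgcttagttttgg
The letters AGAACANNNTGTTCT, which read the same on both strands and include the half-site in each orientation, occur in 3 of the 32851 windows (0.00913%). The others belong to Acnat2 and to the unnamed model Gm35041. Of the members, 5 had at least 1 window in the table (not Scnn1a, Hsd11b2 and Nedd4l). The half-site is in 4 of their 10 windows: those 3 of Sgk1 and the Kcnj1 window, which holds 2. Over all windows the share is 16.1%. Because 6 of the 10 windows belong to Sgk1, they are not separate members. The counts are summed per gene and do not show which start was used.

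Nedd4l (ENSMUSG00000024589) was at 86.4, 100.3, 101.5, 102.9 and 119.8 CPM in controls and at 61.0, 117.7, 102.4, 106.3 and 76.3 CPM with puberulic acid. The ranges overlapped, and puberulic acid replicates 1 and 5 were below every control. Its log2 difference was -0.14 ± 0.16 (adjusted p = 0.47), with a 95% interval from -0.50 to 0.22, and with total counts it was 0.36 (adjusted p = 0.0601). The ratio of Sgk1 to Nedd4l ran from 0.522 to 1.75 in controls and from 0.672 to 1.22 with puberulic acid, a log2 difference of 0.21 (exact permutation p = 0.563, adjusted p = 0.563).

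Kcnj1 (ENSMUSG00000041248) encodes ROMK, the channel through which the thick ascending limb recycles and principal cells secrete potassium. It was at 235.6, 237.2, 211.6, 225.8 and 205.1 CPM in controls and at 202.2, 81.8, 89.8, 74.7 and 122.6 CPM with puberulic acid. Replicate 1 lay just under the lowest control, and the other 4 treated animals were well below it. The resulting log2 fold change was -0.97 ± 0.24 (adjusted p = 0.0035) and -1.30 without replicate 1 (adjusted p = 4.95e-06). With total counts it was -0.45 (adjusted p = 0.104). Of the 4 thick ascending limb markers, 2 were called lower and 0 higher by edgeR, at an adjusted or unadjusted p, and DESeq2 gave the same counts. Among all genes tested edgeR called 31.1% lower and 34.2% higher at an adjusted p. With total counts 1 of the 4 markers was called lower and 2 higher. Their summed level ran from 3682 to 6453 CPM in controls and from 2980 to 5820 CPM with puberulic acid, with replicate 1 the highest of its group. Their part in the Kcnj1 level was not tested.

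**Figure D3:**
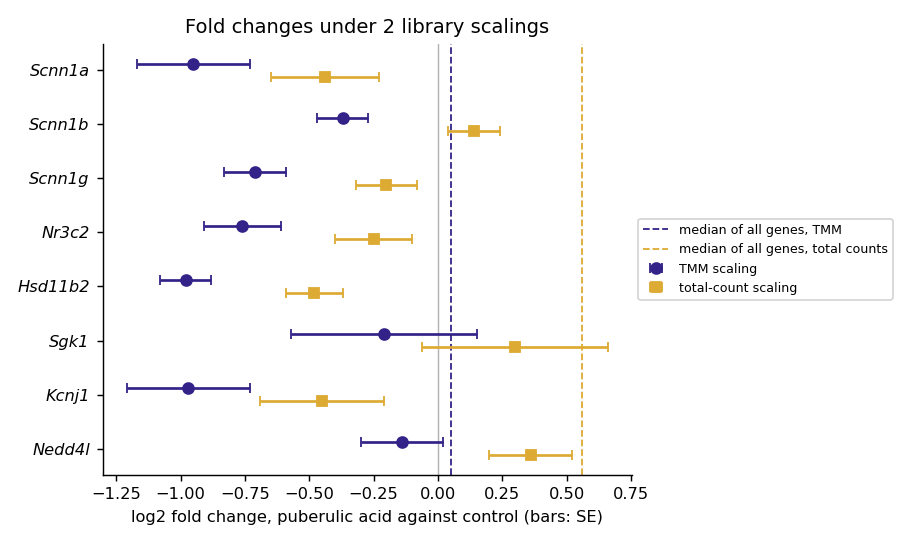
Log2 fold change of each gene, puberulic acid against control, with TMM scaling (circles) and total-count scaling (squares); bars are SE and dashed lines are the medians of all 16266 genes tested, 0.05 and 0.56. Under both scalings every gene lies below the median gene, and the signs for Scnn1b, Sgk1 and Nedd4l change with the scaling.

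The members were set against 6 markers of the principal cell in the same library (Aqp2, Aqp3, Avpr2, Fxyd4, Gata3 and Elf5). Of these, 4 were called lower and 0 higher by edgeR, at an adjusted or unadjusted p, and by DESeq2 (3 and 0 with total counts). Among all genes tested edgeR called 31.1% lower and 34.2% higher at an adjusted p. The 6 markers summed to 354.4 to 561.2 CPM in controls and 155.4 to 190.5 CPM in treated animals. Aqp2, the vasopressin-regulated water channel, made up much of the sum, at 193.0 to 337.8 CPM in controls and 86.4 to 106.6 CPM in treated animals. Relative to this sum, 4 members were higher with puberulic acid. The ratio of Scnn1b to the marker sum was 0.0883 to 0.134 in controls and 0.211 to 0.243 in treated animals, a log2 difference of 0.96. That of Scnn1g was 0.0846 to 0.135 in controls and 0.155 to 0.196 in treated animals, a difference of 0.61. For Nedd4l the difference was 1.16 and for Hsd11b2 it was 0.36. In all 4 ratios every treated animal was above every control (exact permutation p = 0.00794, adjusted p = 0.0159 over the 8 members for each). Nedd4l itself had a log2 fold change of -0.14 and was not called, while Aqp2 and Aqp3 in the sum were at -1.36 and -1.90. Whole-kidney counts do not show which cells the RNA of a member came from, so the ratios are not levels per principal cell.

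The differences for Sgk1 (1.37, exact permutation, adjusted p = 0.0529), Nr3c2 (0.56, exact permutation, adjusted p = 0.0508), Scnn1a (0.31, exact permutation, adjusted p = 0.172) and Kcnj1 (0.26, exact permutation, adjusted p = 0.381) did not pass the correction. For Sgk1, the ratio was 0.126 to 0.148 in control replicates 1 to 4, 0.503 in control replicate 5 and 0.391 to 0.524 with puberulic acid. Without control replicate 5 its log2 difference was 1.75 (exact permutation, adjusted p = 0.0212). Without control replicate 1 the difference for Nr3c2 was 0.71 (exact permutation, adjusted p = 0.0254), and without puberulic acid replicate 4 that for Scnn1a was 0.43 (exact permutation, adjusted p = 0.0127). No other omission of a single animal passed for either gene. By exact permutation, adjusted p then ran from 0.0508 to 0.0741 for Nr3c2 and from 0.172 to 0.39 for Scnn1a. The 8 ratios share 1 denominator, which Aqp2 and Aqp3 dominate. When each marker counted equally, as the mean of log2 CPM, no ratio passed the correction: the differences were 0.81 for Nedd4l, 0.61 for Scnn1b, 0.26 for Scnn1g and 0.01 for Hsd11b2 (exact permutation, adjusted p = 0.0635, 0.0635, 0.111 and 0.96).

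**Figure D4:**
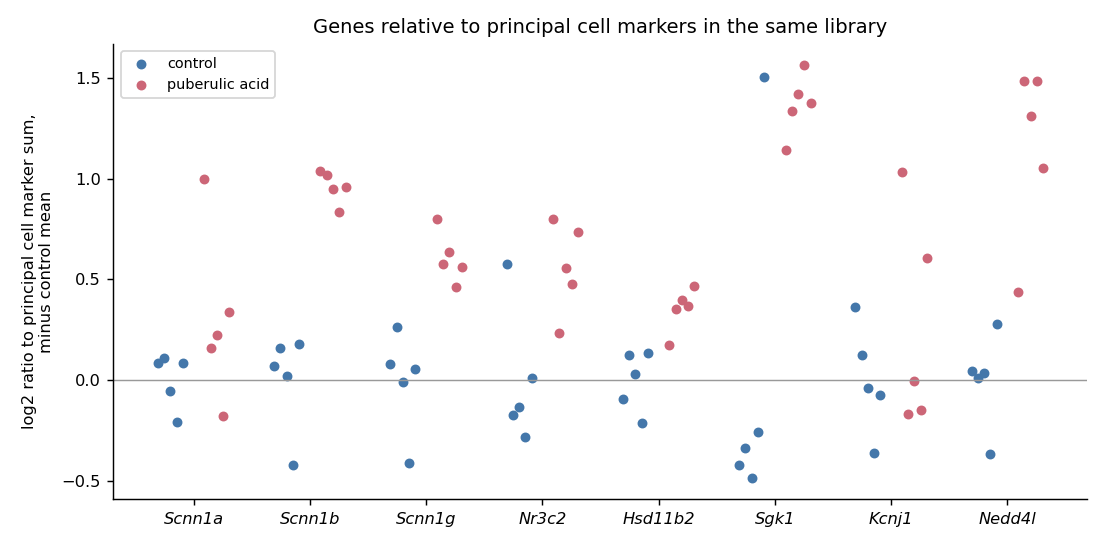
Log2 ratio of each gene to the summed CPM of 6 principal cell markers in the same library, minus the control mean of that gene. Points are animals; for Scnn1b, Scnn1g, Hsd11b2 and Nedd4l all 5 puberulic acid animals lie above all 5 controls, and for Sgk1 control replicate 5 lies among the treated animals.

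Markers of other cells moved as well. The calls below compare with 31.1% lower and 34.2% higher among all genes tested. Intercalated cell markers summed to 341.2 to 412.8 CPM in controls and 133.6 to 321.8 CPM in treated animals (4 of 6 called lower), and distal convoluted and connecting tubule markers to 888.2 to 1373 CPM and 269.8 to 954.2 CPM (3 of 5 lower). With total counts, 2 of each list were called lower and 1 higher. Puberulic acid replicate 1 was the highest of its group for both lists. Leukocyte markers summed to 24.1 to 92.0 CPM in controls and 88.7 to 312.9 CPM in treated animals (3 of 5 called higher), and fibroblast markers to 78.4 to 110.9 and 372.5 to 1469 CPM (3 of 4 higher). Injured tubule markers (Havcr1, Lcn2 and Krt20) summed to 4.09 to 5.88 and 1490 to 2701 CPM, with 3 of 3 called higher. Puberulic acid replicate 1 was the lowest of its group for leukocyte (88.7 CPM), fibroblast (372.5 CPM) and injured tubule markers (1490 CPM). Of 4 podocyte and 4 endothelium markers 1 each was called lower (0 each with total counts). Of 4 urothelium markers, 1 was called higher, the keratin gene Krt5, and the uroplakin genes Upk1b, Upk2 and Upk3a were not called. Puberulic acid replicate 3 had 40.2 CPM of adrenal cortex markers against 1.52 to 3.73 CPM in the other 4 treated animals. Of the 40.2 CPM, Star gave 30.0, Cyp21a1 5.13 and Cyp11b1 4.79. Cyp11b2, which makes aldosterone, had 1 count there and 0 in every other library, and Cyp21a1 was at 0 in all controls. In that animal Hsd11b2 was the highest of the treated group, and no member was the lowest. The part of these cells in the members' levels was not tested. Without puberulic acid replicates 1 and 3, the same 6 members were called lower.

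Calls among the other genes of the pathway were about as frequent as among all genes. Of 48 genes, 47 were tested, of which 16 were called higher and 18 lower, and the median log2 fold change was -0.05, where 34.2% of all genes tested were called higher and 31.1% lower. With total counts 25 were called higher and 8 lower, with a median of 0.46, where 56.4% and 15.5% of all genes were. In the lists below the counts with total-count scaling follow in each case. Whole-kidney counts do not show which cells the changes of these genes came from.

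Of 8 genes for proteases that cleave ENaC and their inhibitors, 4 were called higher, 1 lower and 3 not called (7 higher and 1 lower with total counts), where 65.3% of all genes tested were called. Prss8, the channel-activating protease prostasin, fell from 403.4 ± 50.9 to 92.6 ± 23.1 CPM, a log2 change of -2.12 ± 0.16 (adjusted p = 4.43e-07). Tmprss4, a membrane serine protease, rose from 1.01 ± 0.05 to 1.88 ± 0.65 CPM, a log2 change of 0.89 ± 0.26 (adjusted p = 0.00879). Without puberulic acid replicates 1 and 3 its change was 0.53 (adjusted p = 0.0922). The matriptase gene St14 (log2 fold change 0.80), the lysosomal protease gene Ctsb (0.86) and the inhibitor gene Spint1 (0.35) were the others called higher.

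Among 9 genes that act with SGK1 and NEDD4L, 5 were called higher and 2 lower, where 34.2% and 31.1% of all genes tested were. With total counts 7 were called higher and 1 lower. Sgk2, a related kinase, fell from 164.0 ± 9.53 to 46.4 ± 19.1 CPM, a log2 change of -1.82 ± 0.21 (adjusted p = 1.29e-05). Rictor, a subunit of the mTORC2 complex that activates SGK1, rose from 20.4 ± 2.61 to 28.0 ± 1.70 CPM, a log2 change of 0.46. Mapkap1, for another subunit of that complex, was called lower at -0.32, but with total counts it was 0.19 and not called. The ligase gene Nedd4, the kinase gene Pdpk1 (0.41) and the 14-3-3 genes Ywhab and Ywhae were called higher, with Nedd4 and Ywhab at 0.24 and Ywhae at 0.23.

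Of 10 genes that corticosteroids induce in various tissues, 3 were called higher and 6 lower, where 34.2% and 31.1% of all genes tested were. With total counts 4 were called higher and 3 lower. Usp2, a deubiquitinase that acts on ENaC, fell from 162.1 ± 10.3 to 46.7 ± 9.51 CPM, a log2 change of -1.79 ± 0.13 (adjusted p = 2.85e-07). Edn1, the gene for endothelin-1, rose from 1.52 ± 0.63 to 7.39 ± 1.2 CPM, a log2 change of 2.27 ± 0.30 (adjusted p = 3.14e-05). Tsc22d3 and Fkbp5, known glucocorticoid-induced genes, had log2 fold changes of -1.04 and -0.50 and were called lower. With total counts they were -0.53 and 0.01 and were not called. Klf9 (-1.30, and -0.79 with total counts) and Ndrg2 (-1.53 and -1.02) were called lower under both scalings. Zbtb16, also glucocorticoid-induced, was called higher at 1.43 (1.93 with total counts), and Per1 was at 0.08 and not called (0.59 and called higher with total counts). Cnksr3, a scaffold that assembles the ENaC regulatory complex, was called higher at 0.50.

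Steroid receptor partners were listed with the glucocorticoid receptor and 2 genes of glucocorticoid regeneration (Hsd11b1 and H6pd). These 8 genes gave 3 higher and 1 lower call (5 and 1 with total counts). The other 4 were not called, where 65.3% of all genes tested were called. The co-chaperone gene Fkbp4 fell from 266.3 ± 31.5 to 107.6 ± 16.5 CPM, a log2 change of -1.31. The chaperone gene Hsp90aa1 rose from 400.1 ± 44.0 to 608.7 ± 19.7 CPM, a log2 change of 0.61. The glucocorticoid receptor gene Nr3c1 was at 72.3 ± 8.56 and 69.8 ± 11.4 CPM, a log2 change of -0.05 ± 0.12 (adjusted p = 0.732). With total counts it was called higher at 0.46 (adjusted p = 0.00672).

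The WNK kinase pathway, which sets the activity of the thiazide-sensitive cotransporter, gave 1 higher and 5 lower calls among 7 genes. Among all genes tested 34.2% were called higher and 31.1% lower. With total counts 2 of the 7 were called higher and 2 lower. Klhl3, whose protein directs WNK kinases to degradation, fell from 49.5 ± 11.5 to 12.3 ± 6.98 CPM, a log2 change of -2.0 ± 0.31 (adjusted p = 0.000137). Wnk4 was called lower at -1.22, Wnk1 at -0.83, the cotransporter gene Slc12a3 at -0.76 and Cul3 at -0.57. With total counts Wnk1 (-0.32), Slc12a3 (-0.25) and Cul3 (-0.06) were not called. The kinase gene Oxsr1 was called higher at 0.30, and was not called without puberulic acid replicates 1 and 3 (0.24, adjusted p = 0.0798).

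Potassium channels and the sodium pump gave 3 lower calls among 5 genes tested, and 0 higher calls by edgeR, at an adjusted or unadjusted p, and by DESeq2. Among all genes tested edgeR called 31.1% lower and 34.2% higher at an adjusted p. With total counts 0 of the 5 were called in either direction. Kcnj16, a basolateral potassium channel gene, fell from 553.8 ± 57.4 to 311.8 ± 99.3 CPM, a log2 change of -0.83. The pump subunit gene Atp1b1 was called lower at -0.72. Kcnmb4, a subunit of another potassium channel, had no count in any control and 3 to 12 counts in each treated animal (0.127 to 0.489 CPM), and was not tested.

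**Figure D5:**
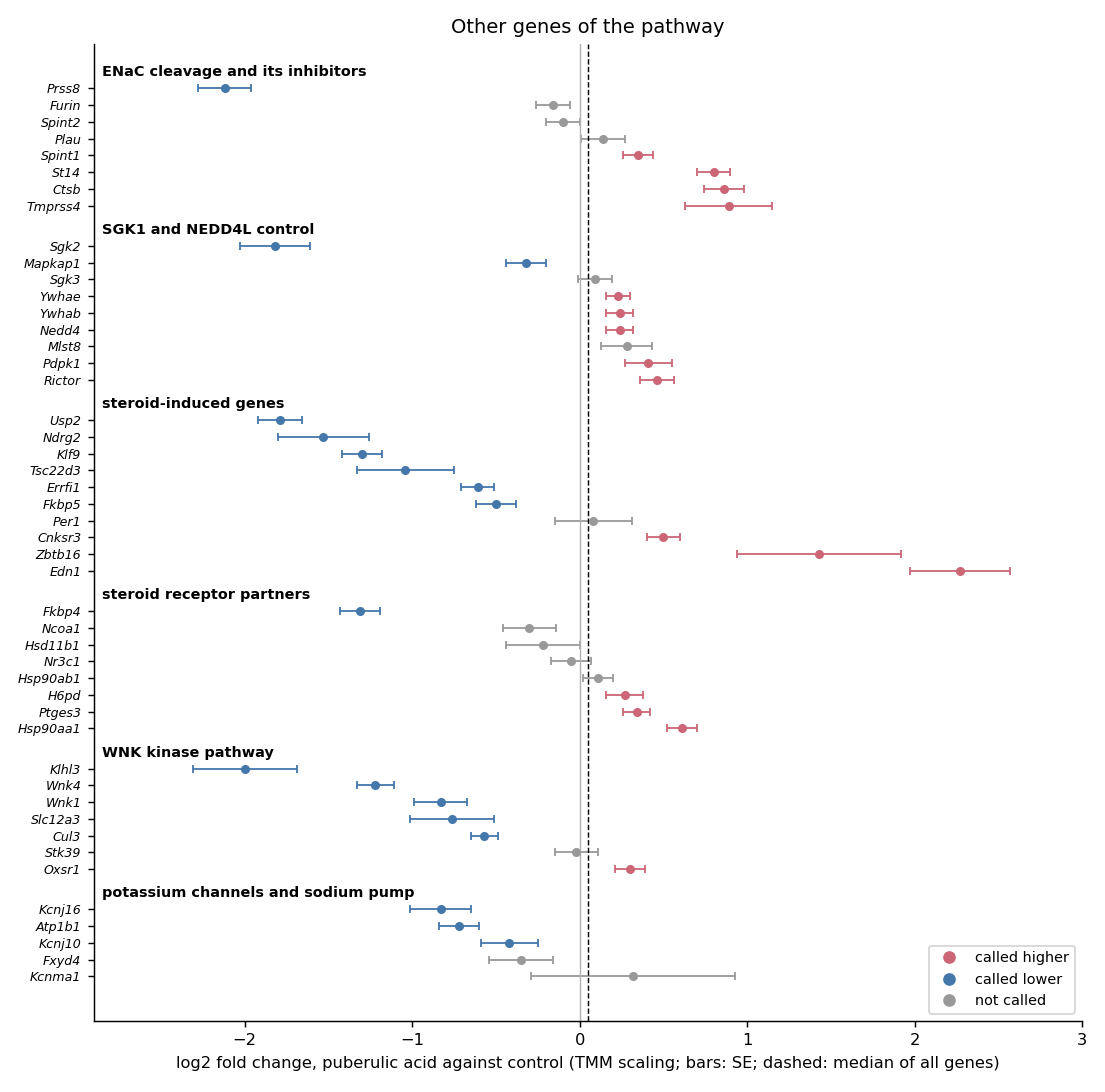
Log2 fold change with TMM scaling of the 47 other pathway genes tested, grouped by function; bars are SE, red is called higher, blue called lower and grey not called, and the dashed line is the median of all genes at 0.05. The largest decreases are Prss8, Klhl3, Sgk2 and Usp2, and the largest increase is Edn1.

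Levels were compared between members per kilobase of the principal annotated transcript (GENCODE M21). In controls Hsd11b2 was the highest at 124.3 ± 17.1 CPM per kilobase, followed by Kcnj1 at 74.7 ± 4.78, Scnn1a at 36.9 ± 3.70 and Sgk1 at 36.8 ± 27.9. Nedd4l was at 27.0 ± 3.13, Scnn1b at 20.6 ± 1.98, Scnn1g at 16.2 ± 1.75 and Nr3c2, the lowest, at 2.96 ± 0.43 CPM per kilobase. Sgk1 ran from 19.0 to 85.6 CPM per kilobase and overlapped Kcnj1, Scnn1a, Nedd4l and Scnn1b in range, and Scnn1b overlapped Scnn1g. With puberulic acid Scnn1a was at 19.2 ± 7.80, Scnn1b at 16.0 ± 2.05 and Scnn1g at 9.91 ± 1.65 CPM per kilobase, and the range of Scnn1b lay inside that of Scnn1a. The places of Sgk1 and Nedd4l depend on the length used: over all annotated exons they were at 18.4 and 5.79 CPM per kilobase in controls.

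The genes nearest to each member in pattern were found among 9491 named genes of at least 10 CPM. Likeness was the root mean square difference over the 10 libraries between log2(CPM + 1) profiles, each centred on its control mean. Hsd11b2 had the nearest neighbours, Naxe (0.0554) and Ndufa8 (0.0671), followed by Scnn1b with Tecpr1 (0.0671) and Arfip2 (0.0770). Scnn1a was nearest to Tns1 (0.0799) and Ankrd40 (0.104), and Scnn1g to Trappc12 (0.0851) and Fitm2 (0.0860). Nr3c2 was nearest to Ncoa4 and Pptc7 (0.109 each), Kcnj1 to Cyfip2 (0.124) and Scn4b (0.132), and Nedd4l to Vps16 (0.0995) and Gnb2 (0.132). Sgk1 had no close neighbour, the nearest being Dnajb1 (0.284) and Angptl4 (0.293). Among the members themselves the closest pair was Scnn1a and Kcnj1 (0.19), in both of which puberulic acid replicate 1 was the highest of its group.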

How the data were processed

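The deposited table gives an estimated count for every gene in every library; many are fractional, and no normalization is stated. Per the submitters' processing notes, fastp 0.22.0, FastQC 0.12.1, MultiQC 1.28, Salmon 1.10.3, DESeq2 and the build GRCm39 were used, with no role or order given. Per the labels' protocols, libraries were poly(A)-selected and strand-specific. Of 20 sample columns, 10 match control or puberulic acid titles by name. The names of the other 10 do not show the supplement lot and those columns were not used. Symbols were found for 51344 of 55822 identifiers (99.3% of counts). No label states that libraries came from separate mice, so p-values measure only the spread between these samples.

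Estimated counts were rounded. Genes kept by filterByExpr were scaled by TMM and tested with the quasi-likelihood test of edgeR 4.0.16 (limma 3.58.1, R 4.3.3), with Benjamini-Hochberg adjustment over all genes and a threshold of 0.05. SE is the size of the log2 fold change over the square root of F. The fit was tested on simulated data in which few genes changed, with both directions equally likely. That test cannot judge the choice of scaling in these data. For ratios within a library, an exact permutation test (two-sided, 252 assignments) was used (numpy 2.4.6, scipy 1.17.1, pandas 2.3.3). Alternatives were other scalings (RLE, upper quartile, total counts), keeping all genes or only those over 1 CPM in 5 libraries, DESeq2 1.42.0, robust fitting, omission of mitochondrial and the 10 most abundant genes, the replicate block, a pseudocount, another marker summary and leaving out each animal. The members, lists and tests were chosen with earlier results of these data known. From each pathway list, the called gene that changed most in each direction is named, if its mean reached 1 CPM. A few more were named after their values were seen (St14, Ctsb, Spint1, Nedd4, Ywhab, Ywhae, Tsc22d3, Fkbp5, Per1, Cnksr3, Nr3c1, Wnk4, Wnk1, Slc12a3, Cul3, Atp1b1, Kcnmb4, Mapkap1, Pdpk1, Hsd11b1, Zbtb16, Ndrg2, Klf9, Errfi1). One gene was taken off the pathway lists and is not analysed here. The promoter motifs were also chosen after the values were seen.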

Additional observations from a re-analysis of the deposited data

Results flagged for a closer look

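Within each group of 5, the highest or lowest animal was marked where its gap to the nearest other exceeded 0.71 of the group's range. Of 120 groups of values, 19 held such an animal, where chance gives about 6 if they were independent, which these are not.

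Puberulic acid replicate 1 was the highest of its group for Scnn1a (114.0 CPM against 42.3 to 61.0), Kcnj16 (485.6 CPM against 237.4 to 286.6), Klhl3 (24.4 CPM), Prss8 (133.1 CPM), Sgk2 (80.0 CPM), Cyfip2 (160.0 CPM) and Ncoa4 (133.7 CPM). It was also the highest for the summed markers of the distal convoluted and connecting tubule (954.2 CPM), of intercalated cells (321.8 CPM) and of the proximal tubule (858.4 CPM against 256.1 to 363.2).

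Control replicate 5 was the highest control for Sgk1 (210.2 CPM against 46.6 to 83.1), for the ratio of Sgk1 to Nedd4l (1.75 against 0.522 to 0.807) and for that of Sgk1 to the principal cell markers (0.503 against 0.126 to 0.148).

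Control replicate 1 was the lowest control for Ndufa8 (142.2 CPM against 189.5 to 199.5) and Trappc12 (31.0 CPM against 36.6 to 38.3) and the highest for the ratio of Nr3c2 to the principal cell markers (0.0602 against 0.0332 to 0.0407). Control replicate 3 was the lowest control for Hsp90aa1 (323.0 CPM against 406.5 to 429.4). Puberulic acid replicate 3 was the highest of its group for urothelium markers (46.3 CPM against 17.1 to 22.6) and adrenal cortex markers (40.2 CPM against 1.52 to 3.73).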

How the results depend on the processing

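With total-count scaling 1 member was called lower, and over all genes 9179 were called higher and 2526 lower. Under it the log2 changes of Kcnj1 (-0.45), Scnn1a (-0.44), Nr3c2 (-0.25) and Scnn1g (-0.20) were no longer called, and the sign turned for Nedd4l (0.36), Sgk1 (0.30), Scnn1b (0.14), Dnajb1 (0.45), Gnb2 (0.40), Vps16 (0.36), Tecpr1 (0.16) and Arfip2 (0.14). With upper-quartile factors Dnajb1 was 0.03. The cause was not tested.

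Replicate numbers did not pair the samples (correlations of deviations -0.172 to 0.039). A fit with the replicate block called 10325 genes, sharing 10111 with the 10622 called without it, and Sgk1 turned to 0.06 and Dnajb1 to 0.04. The block's exact permutation test cannot go under 0.0625, and by it no ratio passed: Scnn1g to Scnn1b stayed at -0.35, and ratios to the principal cell markers at 0.96 for Scnn1b, 0.61 for Scnn1g, 0.36 for Hsd11b2 and 1.16 for Nedd4l.

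With the mean of log2 marker CPM the ratios were 0.61 for Scnn1b, 0.26 for Scnn1g, 0.81 for Nedd4l and 0.01 for Hsd11b2, no longer called, and the sign turned for Scnn1a (-0.04) and Kcnj1 (-0.09). Nr3c2 passed with a pseudocount of 1 CPM (0.59) and Nr3c2 (0.57) and Sgk1 (1.38) with Aqp2 alone. That setting, and leaving out puberulic acid replicates 1 and 3, were chosen after seeing the data. Without those animals Scnn1b to Scnn1a (0.83) and Scnn1g to Scnn1a (0.43) passed.

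Leaving out 1 animal at a time kept 6 members called lower. The log2 change ran from -0.38 to 0.36 for Sgk1, -0.23 to 0.17 for Dnajb1 and -0.10 to 0.55 for Angptl4. Ratios ran from 0.56 to 0.80 for Scnn1b to Scnn1a and 0.22 to 0.43 for Scnn1g to Scnn1a, 0.08 to 0.52 for Sgk1 to Nedd4l and -0.37 to -0.10 for Hsd11b2 to Nr3c2. Against the markers they ran from 0.13 to 0.43 for Scnn1a, 0.07 to 0.37 for Kcnj1, 0.49 to 0.71 for Nr3c2 and 1.25 to 1.75 for Sgk1.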
